A study of Mus musculus with 24 samples.

Results

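The 10 genes described here carry out presentation of peptides on major histocompatibility complex (MHC) class I molecules, or make the immunoproteasome that supplies those peptides. They are H2-K1, H2-D1, Tap1, Tap2, Tapbp, Psmb8, Psmb9, Psmb10, Erap1 and Nlrc5. They were chosen by symbol among the 23337 symbols counted in the series, with earlier results of these data known. All 10 were counted and passed the filter on low counts in every fit. The cells were macrophages grown from bone marrow of C57BL/6J mice aged 6 to 12 weeks, cultured for 7 days with M-CSF at 20 ng/mL, a cytokine under which marrow precursors become macrophages, and with part of the medium replaced every 3 days by medium holding 40 ng/mL. The 2 groups were 6 wild-type cultures (WT1 to WT6) and 6 cultures from Apobec1-/- mice (KO1 to KO6), which lack the RNA-editing cytidine deaminase APOBEC1; the mice were littermates or matched for age. Each culture gave 1 total RNA library and 1 library of ribosome footprints, the short mRNA stretches shielded by ribosomes, and the stated question was the effect of functional APOBEC1 on translation. The labels place KO1 and WT1 to WT3 in batch 1, KO2 to KO4 and WT4 in batch 2, and KO5, KO6, WT5 and WT6 in batch 3, without saying what a batch shares. Separate animals are not stated, so p-values measure the spread between these cultures, which may be technical.

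Class I molecules show peptides from a cell's own proteins to CD8 T cells. Proteasomes cut the proteins, and under interferon the catalytic subunits encoded by Psmb8, Psmb9 and Psmb10 replace those encoded by Psmb5, Psmb6 and Psmb7. The transporter made of TAP1 and TAP2 carries the peptides into the endoplasmic reticulum, where ERAP1 trims them and tapasin, encoded by Tapbp, bridges the transporter to heavy chains such as those of H2-K1 and H2-D1. The heavy chains pair with beta-2-microglobulin (B2m), and NLRC5 is the transactivator that drives many of these genes. Macrophages keep the pathway active and raise it strongly under interferon-gamma.

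Upstream sequences of H2-K1, H2-D1 and Psmb8, and the stretch shared by Psmb9 and Tap1, are shown. They were searched for motifs through which NLRC5 complexes, interferon regulatory factors and NF-kB are known to act on class I genes. Not every sequence holds them. The sequences come from RefSeq, build GRCm38.p6 (mm10), which held an upstream window for 8 of the 10 genes. Each run is 5′ to 3′ on the strand named and ends just before an annotated transcript start. H2-K1 has 2 such windows in RefSeq, from nearby starts, of which the first is shown; it lies inside the gene's full annotated span, which begins farther upstream. Capitals mark a match on either strand to CCAAT (bound by NF-Y), TGACG (core of a cyclic AMP response element), AAGTGAAA (interferon element of class I genes), GAAA followed by any 2 bases and GAAA (general interferon response element), or the kappa B site, which is the first run of capitals in both H2 sequences.
H2-K1, chr17:34000348-34000597, minus strand: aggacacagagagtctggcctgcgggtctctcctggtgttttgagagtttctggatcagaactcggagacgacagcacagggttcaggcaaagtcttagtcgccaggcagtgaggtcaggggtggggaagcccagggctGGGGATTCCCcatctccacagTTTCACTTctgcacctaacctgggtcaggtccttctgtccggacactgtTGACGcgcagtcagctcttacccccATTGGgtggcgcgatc
H2-D1, chr17:35262844-35263093, plus strand: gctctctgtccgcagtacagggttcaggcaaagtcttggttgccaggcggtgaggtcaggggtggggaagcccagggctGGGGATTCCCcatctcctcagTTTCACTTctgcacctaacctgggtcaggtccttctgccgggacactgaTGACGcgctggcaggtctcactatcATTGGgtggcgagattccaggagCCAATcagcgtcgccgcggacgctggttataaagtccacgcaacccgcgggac
Between the starts of Psmb9 and Tap1, chr17:34187331-34187555, strand of Tap1: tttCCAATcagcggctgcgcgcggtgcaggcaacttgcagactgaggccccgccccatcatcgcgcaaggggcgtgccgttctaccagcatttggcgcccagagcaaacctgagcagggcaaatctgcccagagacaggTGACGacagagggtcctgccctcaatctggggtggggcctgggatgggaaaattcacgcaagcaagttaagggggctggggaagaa
Psmb8, chr17:34197945-34198194, plus strand: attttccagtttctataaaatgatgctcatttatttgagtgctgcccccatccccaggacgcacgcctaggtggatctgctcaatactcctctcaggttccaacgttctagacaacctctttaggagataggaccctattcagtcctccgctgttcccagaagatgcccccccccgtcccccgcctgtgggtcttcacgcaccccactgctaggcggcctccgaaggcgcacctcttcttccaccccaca

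The H2-K1 and H2-D1 windows were 91.6% identical over the 190 bases that aligned. Both held, in the same order, the kappa B site, AAGTGAAA, TGACG and CCAAT, with 70 bases from the first base of the kappa B site to that of TGACG in each. The kappa B letters occurred in 0.0852% of all 32851 windows of 250 bases, and AAGTGAAA in 1.36%. Among the 8 genes with a window, both were found only in H2-K1 and H2-D1. CCAAT, present in 33.9% of all windows, was held by 5 of the 8, and TGACG, present in 17.8%, by 4. The general interferon response element, present in 2.98% of all windows, was in none of the 8. Tap1 and Psmb9 start 225 bases apart on opposite strands, so 1 stretch lies upstream of both. The Psmb8 window held none of the 5 motifs, which says only that these letters are not in these 250 bases. All matches are descriptions of letters, not of bound sites.

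Of the 10 genes, 7 lie on chromosome 17: Tapbp (33919478 to 33929290), H2-K1 (33996012 to 34000619), Psmb9 (34182030 to 34187330), Tap1 (34187556 to 34197225), Psmb8 (34198195 to 34201454), Tap2 (34204479 to 34216321) and H2-D1 (35263094 to 35267497). Psmb10 (105935728 to 105938392) and Nlrc5 (94434335 to 94527272) lie on chromosome 8, and Erap1 (74639573 to 74693205) on chromosome 13. H2-K1, H2-D1 and the other heavy chain genes are near-identical copies in places. Reads with more than 1 alignment, 27.8% to 80.1% of a library, were listed apart from the gene counts, so the split of counts among heavy chains is uncertain.

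Gene counts summed to between 5077478 and 12059361 in total RNA, and in footprints to between 29561 (WT6) and 90773 (KO6) at the low end and 3714912 (WT4) at the high end. Levels are in CPM, counts for each 1000000 counted after scaling. In WT6, 3 footprint counts stand for 101 CPM, so its footprint values are coarse. Footprints on Apobec1 were at most 24.7 CPM in KO cultures and at least 57.6 CPM in WT cultures, while its total RNA was higher in KO (605 to 1266 CPM) than in WT (315 to 467 CPM). The part of the gene removed is not given in the labels, so the RNA level is no check of them. Of the 11 macrophage markers counted, all but Marco (lowest 0 CPM) had total RNA counts in every culture. Their lowest levels ran from 4.56 CPM (Mertk) over 953 CPM (Csf1r) to 11885 CPM (Lyz2). Summed CPM of 12 T, NK and B cell markers ranged from 3.22 to 10.6, with Cd3g at 0. Several features separated batch 3: its 4 Y-linked genes summed to 1 to 2 counts, against 973 to 3572 elsewhere, and 4.32% to 5.53% of its RNA reads fell outside counted features, against 8.46% to 10.7% in batch 1 and 14.1% to 19.2% in batch 2.

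None of the 10 genes was called as changed with loss of Apobec1. With batch held constant, edgeR's quasi-likelihood test with Benjamini-Hochberg adjustment called 0 of 10 in total RNA (2 of all 10942 genes, 0.0183%), 0 of 10 in footprints (6 of 7208, 0.0832%) and 0 of 10 in the ratio of footprints to RNA (1 of 7203, 0.0139%). A gene is called where its adjusted p is below 0.05. At an unadjusted p below 0.05 the counts were 0, 1 and 1, against 4.68%, 8.52% and 2.51% of all genes. The 1 gene was Nlrc5 both times. DESeq2 and limma voom also called 0 of 10 in all 3 quantities.

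H2-K1 total RNA in KO cultures had a lowest, median and highest value of 833, 1504 and 1594 CPM, and in WT cultures of 830, 1322 and 1722 CPM. The ranges almost coincide, and the log2 difference KO minus WT was -0.05 ± 0.11 (standard error, n = 6 and 6). H2-D1 ran from 1737 over 2760 to 3751 CPM in KO and from 1781 over 3261 to 3488 CPM in WT, a log2 difference of -0.10 ± 0.11. Across all 10 genes the RNA differences lay between -0.15 (Psmb9) and 0.14 (Tap1), with standard errors of 0.07 to 0.11. For footprints they lay between -0.60 (Nlrc5) and 0.27 (Tap2). KO and WT cultures overlapped for every one of the 10 genes in both kinds of library; 0.110% of genes in total RNA and 0.166% in footprints had groups that did not overlap.

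Nlrc5 footprints rested on 0 to 158 counts per library. They had a lowest, median and highest value of 19.9, 23.1 and 34.1 CPM in KO and 0, 25.7 and 47.0 CPM in WT. WT4 was the highest and WT6, with 0 counts, the lowest of all cultures. The log2 difference was -0.60 ± 0.24 (adjusted p = 0.489), and within batches 1, 2 and 3 it was -0.03, -0.83 and 1.90. The batch 3 value is set by the 0 counts of WT6: KO5, KO6 and WT5 had 22.1, 19.9 and 22.1 CPM, from 5, 2 and 5 counts. A limit on footprint depth of 1000000 counts leaves WT1, WT4, KO2 and KO4, and KO and WT then meet only in batch 2, with WT4 as the single WT culture. In that set Nlrc5 was called lower in KO in footprints (log2 difference -1.09) and in total RNA (-0.34). Many other genes were called there too. The Nlrc5 calls rest on a single WT culture and are not read as a genotype difference. In the authors' deposited table over all genes, every one of the 10 had an adjusted p of 1. Its Nlrc5 log2 fold change was 0.52 (unadjusted p = 0.0300), and the header states neither the direction nor the quantity compared. The direction is taken here, as an inference from the signs of other genes, as WT over KO. Over all cultures, the Nlrc5 ratio of footprints to RNA fitted here had a log2 difference KO minus WT of -0.63, which was not called.

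No gene's KO minus WT difference was called as differing between batches. The lowest adjusted p of that interaction was 0.434, for Nlrc5 in total RNA. Batches 1 and 2 hold 1 KO and 1 WT culture respectively, which limits that test.

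**Figure D1:**
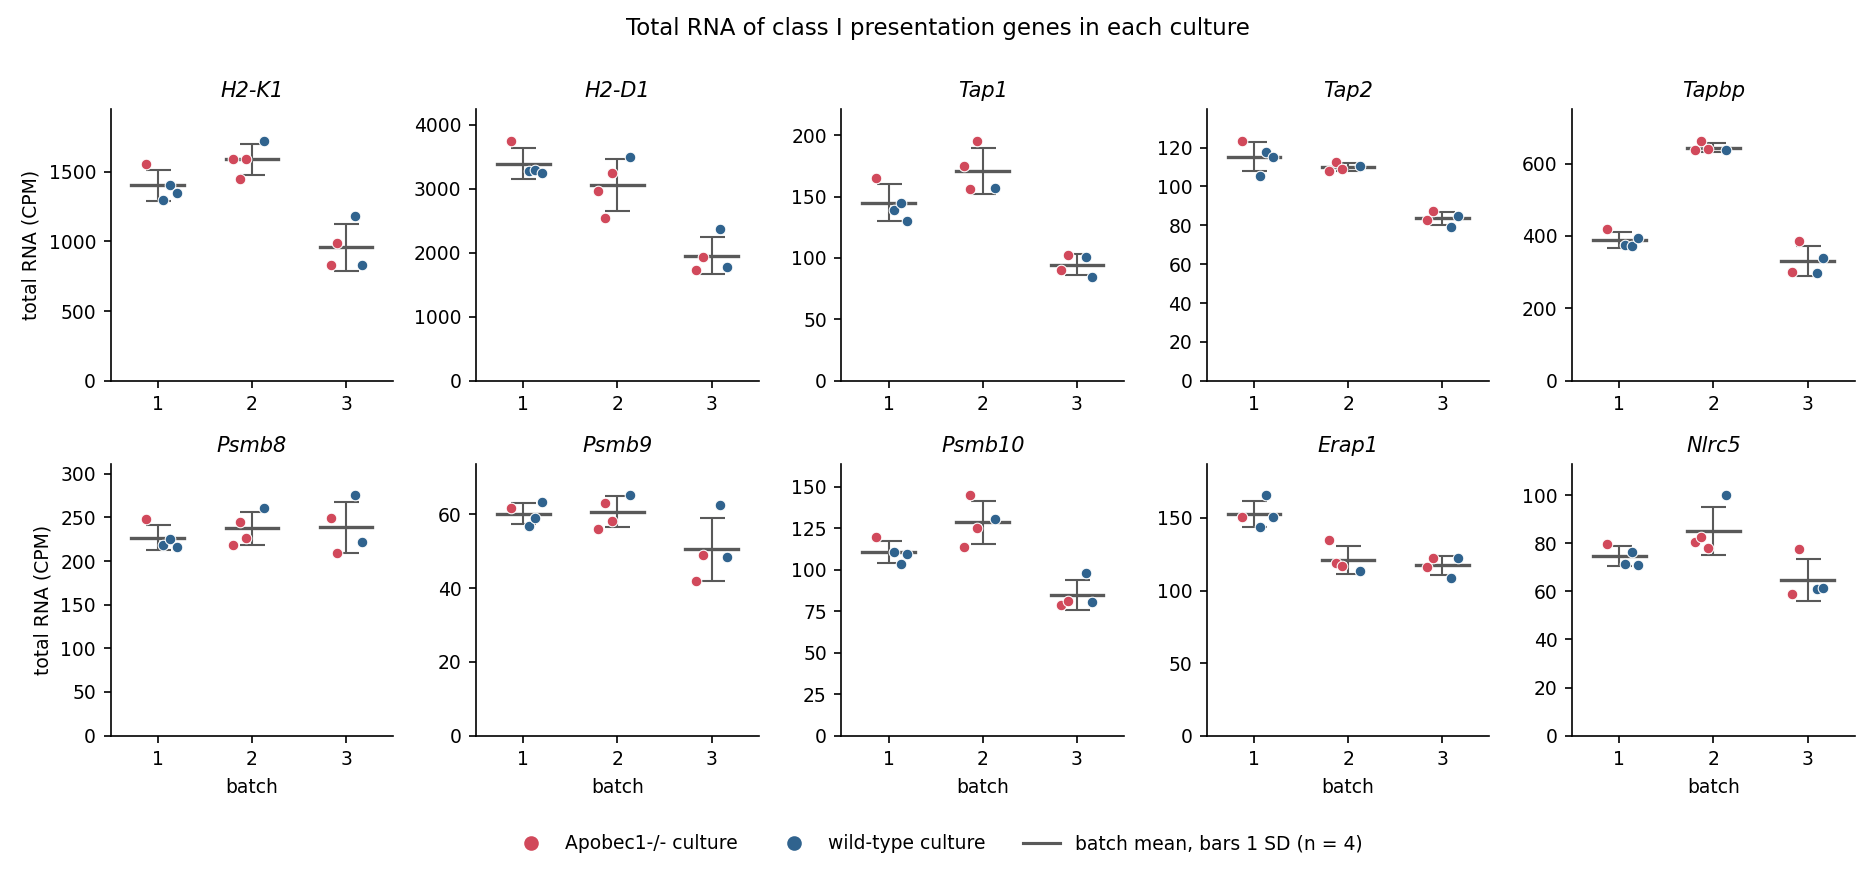
Total RNA of each gene in CPM (vertical axes from 0) in the 12 cultures, by batch. Points are cultures coloured by genotype, and lines with bars are batch means with 1 SD; red and blue points mix within batches, while the batch 3 points of H2-K1, H2-D1, Tap1, Tap2 and Psmb10 sit below all others.

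The heavy chain genes differed by batch and were lowest in batch 3. H2-K1, one of the classical heavy chains, had 1558 CPM in KO1 and 1296, 1402 and 1349 CPM in WT1 to WT3. In batch 2 it had 1593, 1450 and 1594 CPM in KO2 to KO4 and 1722 CPM in WT4, and in batch 3 it had 833, 986, 1183 and 830 CPM in KO5, KO6, WT5 and WT6. All batch 3 cultures lay below the lowest of the others, and WT5 was the highest of the 4. The log2 difference was -0.55 ± 0.12 against batch 1 (adjusted p = 0.00257) and -0.76 ± 0.12 against batch 2 (adjusted p = 0.000275). H2-D1, the other classical heavy chain, fell from 3393 ± 240 CPM (SD, n = 4) in batch 1 and 3062 ± 402 CPM in batch 2 to 1956 ± 290 CPM in batch 3. Its batch 3 values of 1737, 1932, 2373 and 1781 CPM did not reach the lowest other value, 2550 CPM in KO3. The log2 difference was -0.78 ± 0.13 against batch 1 (adjusted p = 0.000278).

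Both transporter genes were also lower in batch 3. Tap1 stood at 165, 139, 145 and 130 CPM in batch 1 (KO1, then WT1 to WT3) and at 175, 156, 196 and 157 CPM in batch 2 (KO2 to KO4, then WT4). Its batch 3 values were 90.3, 102, 101 and 84.8 CPM (KO5, KO6, WT5, WT6), all below the others. The log2 difference was -0.65 ± 0.10 from batch 1 (adjusted p = 0.000133) and -0.83 ± 0.10 from batch 2 (adjusted p = 2.02e-05). Tap2 was at 115 ± 7.59, 110 ± 2.19 and 83.7 ± 3.41 CPM (SD, n = 4) in batches 1, 2 and 3, again without overlap between batch 3 and the rest.

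Tapbp, encoding tapasin, was the gene that set batch 2 apart. Its RNA was 637, 663 and 639 CPM in KO2 to KO4 and 637 CPM in WT4. In batch 1 it was 419 CPM in KO1 and 374, 371 and 395 CPM in WT1 to WT3, and in batch 3 it was 301, 387, 298 and 339 CPM. All batch 2 cultures thus lay above all others, KO and WT alike. The log2 difference of batch 2 from batch 1 was 0.69 ± 0.10 (adjusted p = 0.000602), and that of batch 3 from batch 2 was -0.95 ± 0.09 (adjusted p = 4.38e-06). Batch 3 was below batch 1 by a log2 difference of -0.26 ± 0.09 (adjusted p = 0.0329), a call lost without any 1 of KO1, KO5, WT1, WT3 or WT5 (adjusted p 0.0563 to 0.111). It was also lost with library totals as scaling (-0.18, adjusted p = 0.135) and with no filter on low counts (adjusted p = 0.0780).

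The immunoproteasome genes did not move alike. Psmb8 held 248, 218, 225 and 216 CPM in batch 1, 218, 245, 227 and 261 CPM in batch 2, and 249, 209, 275 and 221 CPM in batch 3, which overlap throughout. It was the only 1 of the 10 genes that the joint test of all batches did not call in total RNA (adjusted p = 0.672). Psmb10 fell to 84.7 ± 8.98 CPM in batch 3 from 111 ± 6.55 CPM in batch 1 and 128 ± 12.9 CPM in batch 2 (SD, n = 4), with no overlap. Its log2 difference was -0.39 ± 0.10 against batch 1 (adjusted p = 0.00670), a call lost without KO1 (adjusted p = 0.0518) and without both KO6 and WT6 (0.0526), and -0.62 ± 0.10 against batch 2 (adjusted p = 0.000301). Psmb9 was at 41.9, 48.9, 62.5 and 48.5 CPM in batch 3, where WT5 lay inside the range of the other batches (56.1 to 65.1 CPM). Its joint call (adjusted p = 0.0437) was lost in 9 of 12 fits that left out 1 culture, all but those without KO1, KO2 or WT5, with adjusted p up to 0.197 (without KO5), and also with library totals as scaling (0.240), with no filter on low counts (0.0779) and without both KO6 and WT6 (0.174). Its call between batches 3 and 2 (-0.32 ± 0.11, adjusted p = 0.0250) was lost without KO3, KO5, WT4 or WT6 (adjusted p 0.0554 to 0.125), without both KO6 and WT6 (0.0877), and with library totals (-0.18, adjusted p = 0.156).

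Erap1, the trimming peptidase, was highest in batch 1: 151 CPM in KO1 and 144, 166 and 151 CPM in WT1 to WT3, against 114 to 135 CPM in batch 2 and 109 to 123 CPM in batch 3. It differed from batch 1 by a log2 difference of -0.35 ± 0.09 in batch 2 (adjusted p = 0.0133; 0.0740 without WT4) and of -0.40 ± 0.08 in batch 3 (adjusted p = 0.00172). Batches 2 and 3 were not called apart (-0.04 ± 0.08). Nlrc5, the transactivator, had 74.6 ± 4.14, 85.3 ± 9.97 and 64.7 ± 8.63 CPM (SD, n = 4) in batches 1, 2 and 3, with KO6 (77.5 CPM) inside the range of batch 1. It was called between batches 3 and 2 only (-0.41 ± 0.11, adjusted p = 0.00765, and 0.0693 without WT4). Its joint call was lost without KO5 (adjusted p = 0.0720) and with library totals (0.0943). With library totals the joint test called 7 of 10 genes, where it called 6952 of all 10942.

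In counts, the joint test across batches called 9 of 10 genes in total RNA, against 61.6% of all genes tested. Batch 3 was lower than batch 1 in 7 of 10, where 22.3% of all genes were called lower. It was lower than batch 2 in 8 of 10 and higher in 0, against 24.5% and 24.7% of all genes. Batch 2 against batch 1 gave 1 gene higher (Tapbp) and 1 lower (Erap1), against 12.7% and 10.8%. For 5 of 10 genes every batch 3 culture lay below every other culture, as for 12.4% of all genes, and for 0 of 10 every batch 3 culture lay above, as for 13.6%. The median log2 difference of the 10 genes was -0.39 for batch 3 against batch 1 and -0.52 against batch 2, where the median of all genes was 0.01 in both. With library totals in place of TMM scaling, all-gene calls of batch 3 against batch 1 shifted from 2519 higher and 2436 lower to 3158 and 1956, and 6 of the 10 genes stayed called. Against batch 2 they shifted from 2700 and 2685 to 3741 and 1929, with 7 of the 10 called; for batch 2 against batch 1, from 1388 and 1184 to 1103 and 1530.

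**Figure D2:**
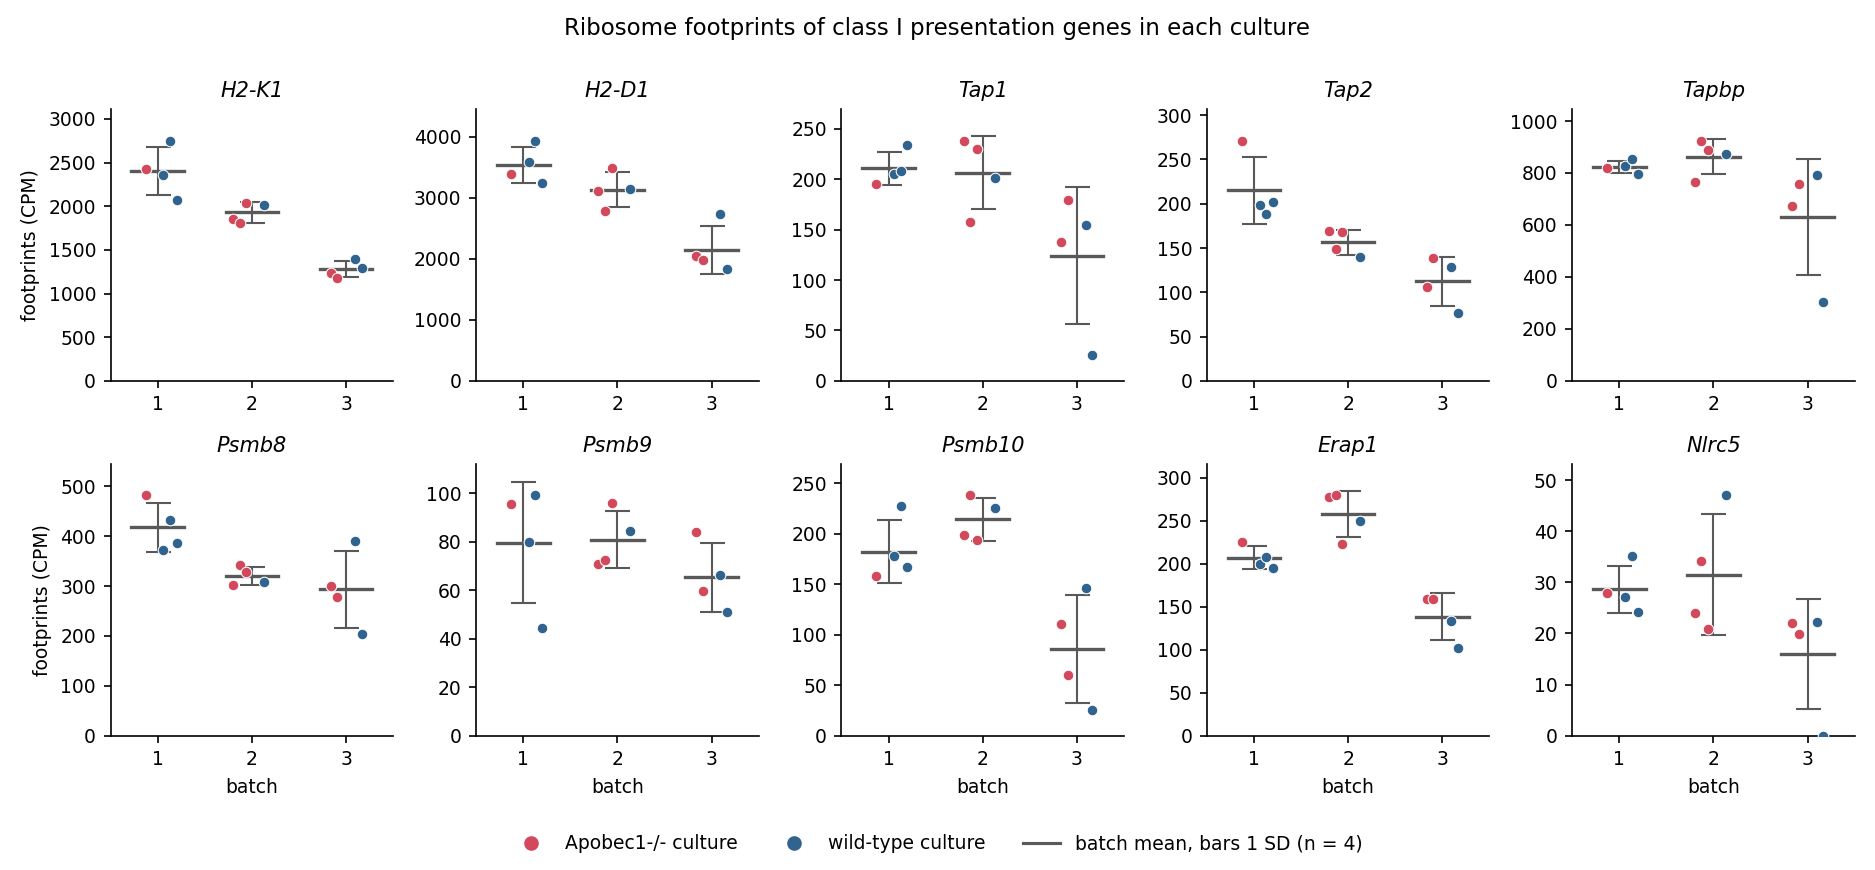
Ribosome footprints of each gene in CPM (vertical axes from 0) in the 12 cultures, by batch, with batch means and 1 SD. Batch 3 points of H2-K1, H2-D1, Tap2, Psmb10 and Erap1 sit below all others; in WT6, Tap1 and Psmb10 rest on 1 count each and Nlrc5 on 0.

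Footprints on the heavy chains fell in batch 3 together with their RNA. H2-K1 footprints were 2427, 2355, 2752 and 2075 CPM in batch 1, 1854, 1805, 2039 and 2020 CPM in batch 2 and 1240, 1183, 1395 and 1297 CPM in batch 3, each in the culture order used above. The 3 batches formed 3 separate ranges. The log2 difference of batch 3 was -0.80 ± 0.14 from batch 1 (adjusted p = 7.31e-05) and -0.50 ± 0.14 from batch 2 (adjusted p = 0.00797). H2-D1 footprints were at 3538 ± 300, 3132 ± 290 and 2146 ± 398 CPM (SD, n = 4), a log2 difference of -0.59 ± 0.14 for batch 3 from batch 1 (adjusted p = 0.00268). Its difference from batch 2, -0.45 ± 0.14 (adjusted p = 0.0208), was lost without KO4, KO5 or KO6 (adjusted p 0.0640 to 0.0838), and without both KO6 and WT6 its joint call was lost as well (adjusted p = 0.0662).

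Tap2 footprints were 271, 199, 189 and 201 CPM in batch 1, 169, 149, 168 and 140 CPM in batch 2 and 106, 139, 128 and 76.3 CPM in batch 3. KO1 was the highest of all cultures, and batch 1 lay wholly above the rest. Batch 3 differed from batch 1 by -0.86 ± 0.20 (adjusted p = 0.00200) and batch 2 by -0.61 ± 0.15 (adjusted p = 0.00634; 0.114 without KO1). Psmb10 footprints fell against batch 2 (-0.95 ± 0.23, adjusted p = 0.00215), and Erap1 footprints did too (-0.70 ± 0.18, adjusted p = 0.00518). Tap1, Tapbp, Psmb8, Psmb9 and Nlrc5 footprints were not called in any pair of batches, with log2 differences of -0.60 to 0.43. Psmb8 was near the threshold between batches 2 and 1 (-0.44 ± 0.16, adjusted p = 0.0542) and was called lower there in 9 of 18 alternatives, with DESeq2 at an adjusted p of 0.0157.

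The joint test of footprints called 5 of 10 genes, H2-K1, H2-D1, Tap2, Psmb10 and Erap1, against 33.4% of all genes. Batch 3 was lower than batch 1 in 3 of 10 (11.2% of all genes called lower) and lower than batch 2 in 4 of 10 (11.7%), and 0 were higher in either (9.54% and 10.9%). Batch 2 was lower than batch 1 in 1 of 10, Tap2 (7.37%). The same 5 genes had every batch 3 culture below every other, as did 10.8% of all genes; for 0 of 10 batch 3 lay above all others (3.59%). Footprint depth was lowest in batch 3, at 29561 to 223504 counts, so it moved with this difference.

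**Figure D3:**
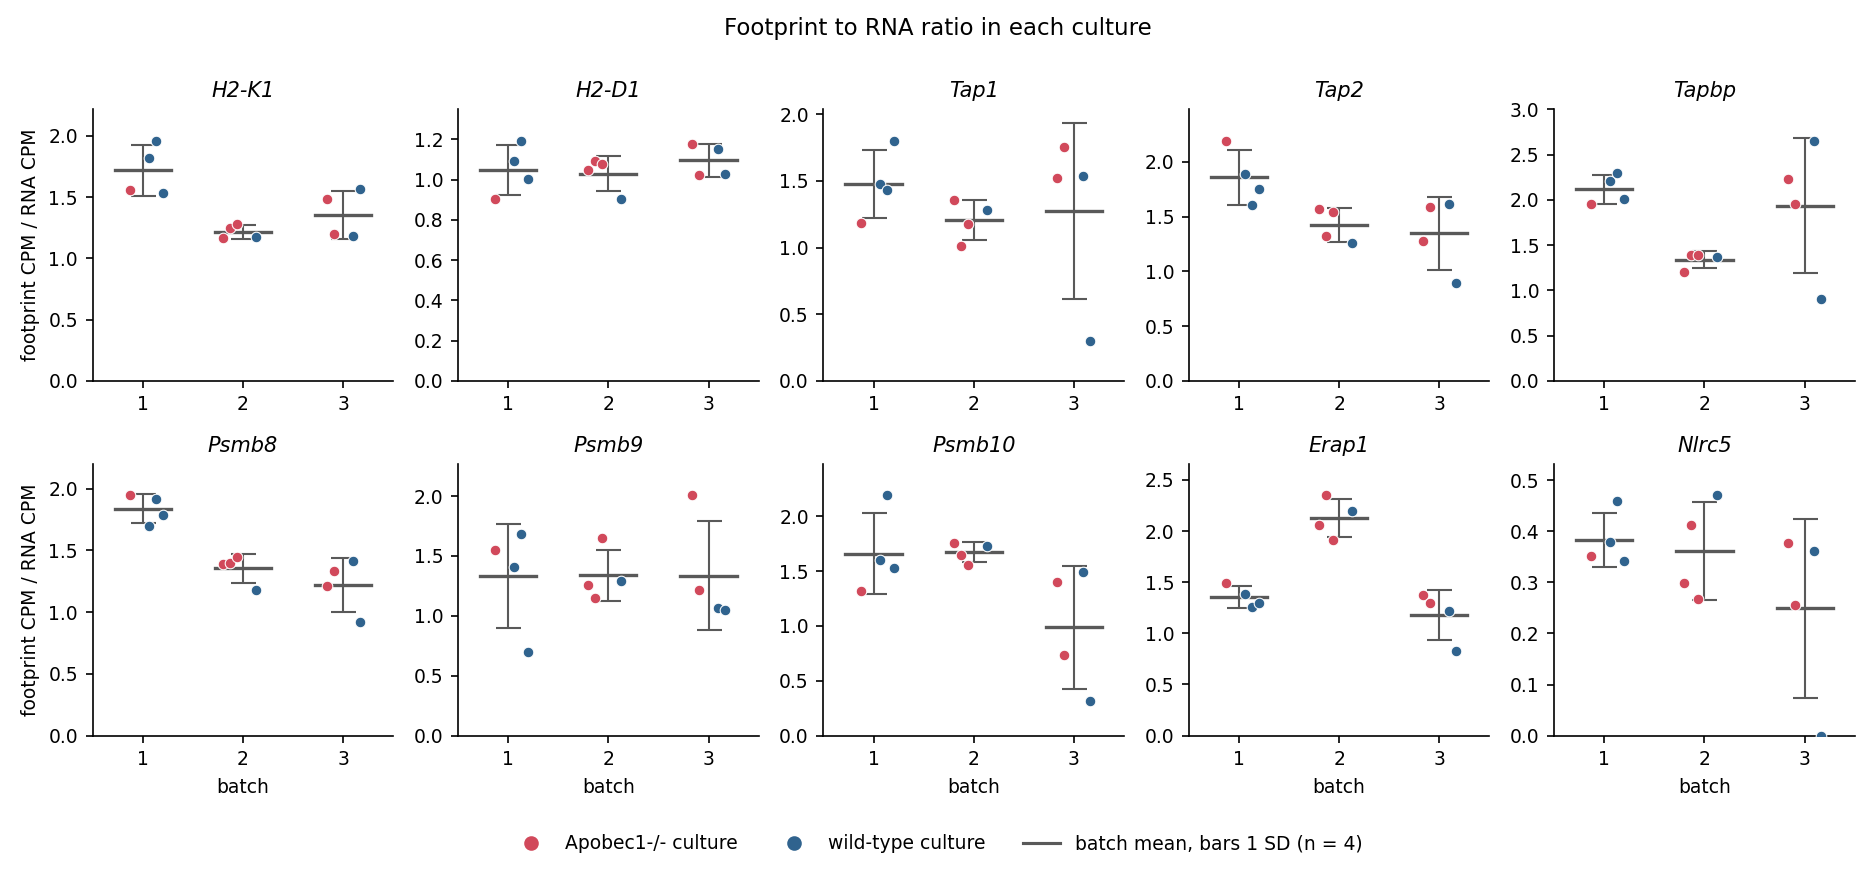
Ratio of footprint CPM to total RNA CPM for each gene (vertical axes from 0, no unit) in the 12 cultures, by batch, with batch means and 1 SD. Batch 2 stands apart upward for Erap1 and, but for WT6, downward for Tapbp; Nlrc5 stays between 0 and 0.470 throughout.

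Nlrc5 had few footprints for its RNA. Over the 10 cultures with at least 100000 footprint counts, its mean footprint CPM divided by its mean RNA CPM was 0.375. Single cultures had ratios between 0.267 and 0.470, and 6.83% of the 7203 genes had a lower ratio of means. The other 9 genes had ratios of means from 1.05 (H2-D1) to 1.73 (Tapbp), where the median gene had 1.02. Counted regions may differ between the 2 kinds of library and gene lengths were not used here, so the place of a gene among all genes is a description.

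Tapbp and Erap1 shifted between RNA and footprints in opposite directions in batch 2. Tapbp ratios were 1.96, 2.21, 2.30 and 2.01 in batch 1 and 1.20, 1.39, 1.39 and 1.37 in batch 2. In batch 3 they were 2.24, 1.95 and 2.66 in KO5, KO6 and WT5, and 0.900 in WT6, which had 12 Tapbp footprint counts. Batch 2 was thus below batch 1 in every culture, a log2 difference of -0.67 ± 0.19 (adjusted p = 0.0170). Its RNA difference in that pair was 0.69 ± 0.10, and that of its footprints, 0.03 ± 0.16, was not called. Erap1 ratios were 1.49, 1.38, 1.25 and 1.29 in batch 1, 2.06, 2.35, 1.91 and 2.20 in batch 2 and 1.37, 1.30, 1.22 and 0.829 in batch 3. Batch 2 lay above every other culture, by 0.57 ± 0.15 over batch 1 (adjusted p = 0.0117), and batch 3 was lower than batch 2 by a log2 difference of -0.70 ± 0.17 (adjusted p = 0.0108).

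The joint test of the ratio called 3 of 10 genes, Tap2, Tapbp and Erap1, against 18.8% of all genes. Between batches 2 and 1, 4 of 10 were lower (8.41% of all genes), namely H2-K1 (-0.51 ± 0.18), Tap2 (-0.53 ± 0.15), Tapbp and Psmb8 (-0.54 ± 0.18), and 1 was higher, Erap1 (8.26%). Between batches 3 and 2, Tapbp was higher (0.67 ± 0.19; 4.46% of all genes) and Erap1 lower (5.51%), and between batches 3 and 1 none was called (1.14%; 2 of 10 at an unadjusted p below 0.05, 12.4%). DESeq2 and limma voom called 0 there too. With WT4 left out, which leaves batch 2 no WT culture, none of the 3 joint calls was made (adjusted p = 0.137, 0.0726 and 0.147 for Tap2, Tapbp and Erap1), and calls among all genes fell from 1354 to 583. The log2 differences between batches 2 and 1 were then -0.55, -0.65 and 0.45, against -0.53, -0.67 and 0.57 with all cultures. The Tap2 joint call was lost in 9 of 12 fits that left out 1 culture, and that of Tapbp also without KO5 or WT2. Between batches 2 and 1 the H2-K1 and Psmb8 calls were lost in 10 and 9 of those 12 fits. Without KO1, the only KO culture of batch 1, only Erap1 was called in that pair, and the Tapbp call was also lost without WT2. Between batches 3 and 2 the Tapbp call was lost without KO5, KO6, WT2, WT4 or WT5, and the Erap1 call without WT4 or without both KO6 and WT6. With limma voom both pairwise Erap1 calls were lost (adjusted p = 0.0587 and 0.0624), as was the joint Tap2 call (0.0567). With the 2 libraries of a culture kept as a block, the joint calls rose to 5 of 10, adding H2-K1 and Psmb8.

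**Figure D4:**
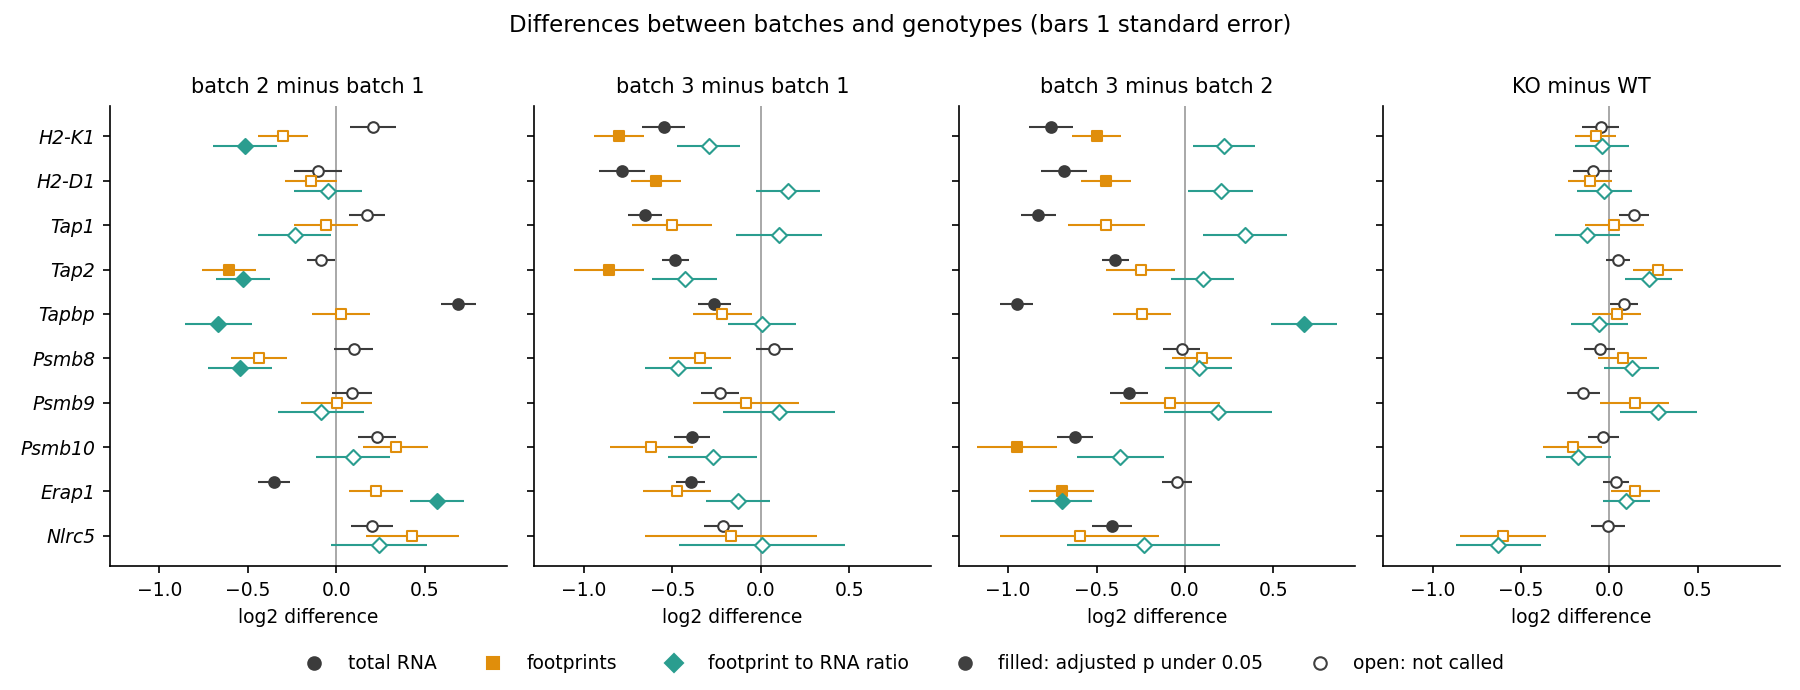
Log2 differences (horizontal axes) of total RNA, footprints and their ratio for each gene between batches and between genotypes, with bars of 1 standard error and filled symbols for adjusted p below 0.05. In the batch 3 panels total RNA and footprints lie mostly left of 0, filled for up to 8 genes in total RNA, while the ratios lie on both sides. The KO minus WT panel has no filled symbol.

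Each immunoproteasome subunit was set against the constitutive subunit it replaces, as a ratio of counts within a library, which needs no scaling between libraries. Psmb8 over Psmb5 in total RNA was 3.51, 2.82, 2.78 and 2.63 in batch 1, 3.29, 3.17, 3.76 and 2.65 in batch 2 and 2.08, 1.86, 2.05 and 2.20 in batch 3. Psmb9 over Psmb6 averaged 0.482 ± 0.0236, 0.604 ± 0.0525 and 0.265 ± 0.0333, and Psmb10 over Psmb7 1.48 ± 0.177, 1.74 ± 0.135 and 0.786 ± 0.103 (SD, n = 4). Batch 3 lay below both other batches without overlap in all 3 pairs of total RNA. In footprints it did so for Psmb8 over Psmb5 (0.731 to 1.17, others at least 1.46) and Psmb10 over Psmb7 (0.200 to 0.917, others at least 1.33), while for Psmb9 over Psmb6 WT3 at 0.269 fell inside the batch 3 range of 0.194 to 0.284. How often other pairs of genes separate batch 3 in this way was not computed. In total RNA, 12.4% of single genes had every batch 3 culture below every other culture, and 13.6% had every one above. The ratios of the 3 pairs are descriptions without a test. They compare batches within a pair, and their size says nothing of how much of either subunit was present.

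The RNA of the constitutive subunits rose in batch 3. Total RNA of Psmb5, Psmb6 and Psmb7 was higher than in batch 1 by log2 differences of 0.64 ± 0.12, 0.63 ± 0.12 and 0.53 ± 0.12 (adjusted p = 0.000935, 0.000854 and 0.00304). Their footprints were higher than in batch 2 by 1.07 ± 0.19, 0.76 ± 0.17 and 0.62 ± 0.19 (adjusted p = 7.37e-05, 0.00106 and 0.0158). Against batch 1, footprints of Psmb5 (0.72 ± 0.20) and Psmb6 (0.95 ± 0.18) were called higher, and those of Psmb7 were not called (0.54 ± 0.20, adjusted p = 0.0505). Psmb8 RNA itself was not called between batches, so its ratio to Psmb5 was lower in batch 3 while its own level was not called as lower.

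**Figure D5:**
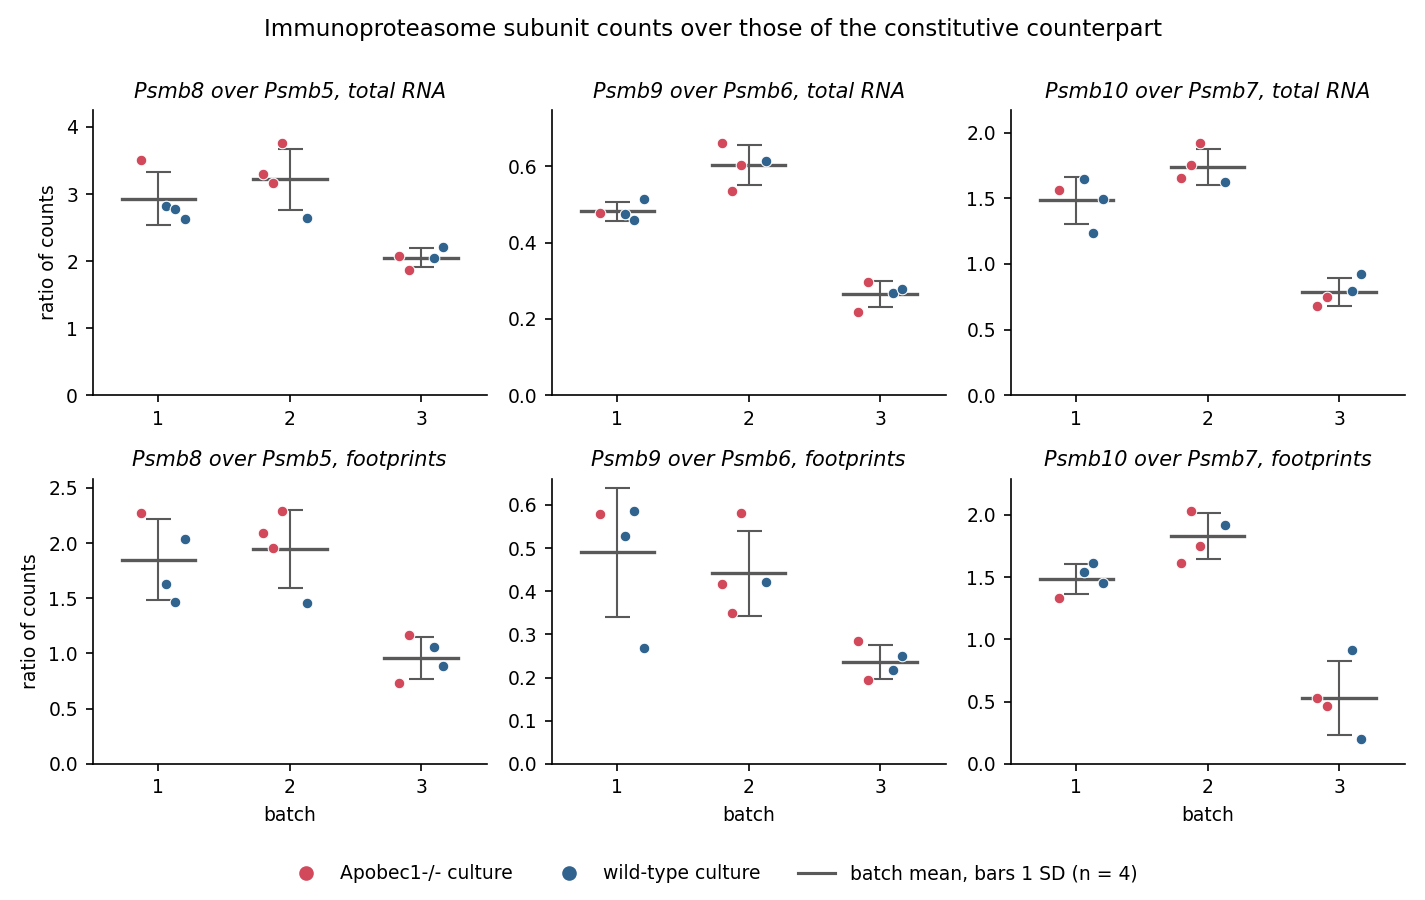
Counts of each immunoproteasome subunit over those of its constitutive counterpart within the same library (vertical axes from 0, no unit), by batch, in total RNA (top) and footprints (bottom), with batch means and 1 SD. Batch 3 lies below the other batches in every panel except for WT3 in Psmb9 over Psmb6 footprints.

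B2m, the light chain of every class I molecule, was lowest in batch 3 as well. Its RNA averaged 3178 ± 331, 4195 ± 202 and 2295 ± 215 CPM in batches 1, 2 and 3 (SD, n = 4), and its footprints 5514 ± 908, 6472 ± 590 and 2478 ± 286 CPM. Batch 3 footprints differed from batch 1 by a log2 difference of -1.09 ± 0.14 (adjusted p = 9.42e-07). Of the 6 genes of the light chain and loading chaperone list, batch 3 RNA was lower than batch 1 in 4 (22.3% of all genes) and higher in 0: B2m, Tapbpl (the tapasin relative TAPBPR), Pdia3 (the disulfide isomerase of the loading complex) and Uggt1 (a glycoprotein quality control enzyme). Of 11 tested further heavy chain genes, 5 were lower (22.3% of all genes) and 0 higher, led by H2-Q6 (-2.75 ± 0.37) and H2-M2 (-2.03 ± 0.47). Among 7 other trimming peptidases, Lnpep (-0.81 ± 0.13) and Tpp2 (-0.49 ± 0.08) were lower, where 22.3% of all genes were. Lap3 (0.31 ± 0.09) was higher, as were 2519 of all 10942 genes, so this list lay near the shares of all genes.

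Regulators and other interferon-responsive genes were mostly lower in batch 3 as well. Of 20 regulators of class I genes and interferon-gamma signalling, 11 were lower than in batch 1 and 1 higher in total RNA, where 22.3% of all genes were lower. The lower ones included Ifngr1, a chain of the interferon-gamma receptor (-1.28 ± 0.14), and Irf8, an interferon regulatory factor of myeloid cells (-1.10 ± 0.12). Against batch 2, 14 were lower (24.5% of all genes) and 1 higher (24.7%), among the lower ones Ciita, the class II transactivator (-2.75 ± 0.35), and Irf1 (-1.27 ± 0.11). Of 10 interferon-gamma-inducible GTPases and chemokines tested, 5 were lower than in batch 1 (22.3% of all genes) and 0 higher, with Iigp1 at -3.13 ± 0.36 and Gbp5 at -1.47 ± 0.25. Of 22 type I interferon-stimulated genes, 16 were lower than in batch 1 (22.3% of all genes) and 0 higher, for example Ifi44 (-2.35 ± 0.13) and Mx1 (-1.54 ± 0.19). Batch 2 was higher than batch 1 in 12 of these 22 (12.7% of all genes) and lower in 0 (10.8%), with Zbp1 at 1.51 ± 0.16 and Irf7 at 1.38 ± 0.11.

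Over all 7 lists together, 83 other genes of the pathway and its interferon control were tested in total RNA. Between genotypes 0 were called (0.0183% of all genes). Against batch 1, 43 were lower in batch 3 (22.3% of all genes) and 7 higher. Against batch 2, 54 were lower (24.5%) and 7 higher (24.7%). In footprints 23 of 68 were lower (11.2%) and 3 higher (9.54%) than in batch 1. The median log2 difference in total RNA was -0.42 against batch 1 and -0.77 against batch 2, where that of the 10 genes described here was -0.39 and -0.52.

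Cell type markers also differed between batches. Of 11 macrophage markers counted, 7 were called lower in batch 3 than in batch 1 (22.3% of all genes) and 0 higher, and their summed CPM was 15605 to 25621 in batch 3, 21897 to 29466 in batch 1 and 27762 to 49303 in batch 2. The 12 neutrophil markers summed to 447 to 587 CPM in batch 3, 154 to 584 CPM in batch 2 and 56.6 to 66.9 CPM in batch 1. The 7 monocyte markers counted summed to 242 to 306 CPM in batch 3 and 112 to 156 CPM in batch 1. They were highest in batch 2, at 422 to 554 CPM. The 10 dendritic cell markers summed to 15.7 to 18.2 CPM in batch 3, 21.8 to 85.0 CPM in batch 2 and 99.5 to 156 CPM in batch 1. Itgax alone reached 152 CPM in batch 1. In bulk RNA, fewer cells of a type and less RNA per cell cannot be told apart. The Y-linked counts given above separate batch 3 fully from the other batches, so a difference tied to them cannot be told apart from batch. The part of cell makeup, depth, reads outside features or the Y-linked difference in the batch differences of the 10 genes was not tested.

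The order of cultures within a batch was shared by the 10 genes at most in part. KO1 was the highest of the 4 batch 1 cultures for 8 of 10 genes in total RNA, WT4 the highest in batch 2 for 5, and WT5 in batch 3 for 5. In batch 3, KO6 was the highest for 4 and WT5 the lowest for 3. The shares of all genes with the same culture highest were not computed, so no order particular to these genes is read here. With batch means removed, the genes whose total RNA most resembled the mean of the 10 over the 12 cultures were Sash3 (Pearson r = 0.913), Lst1 (0.912), Arsa (0.911), Pld4 (0.897) and Golph3 (0.879), out of 10812 ranked. The cultures share libraries and depth across genes, so these values are descriptive.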

How the data were processed

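Read counts per gene symbol were deposited by the authors for 24 libraries, total RNA and ribosome footprints of 12 cultures. The submitters' processing notes name TopHat2 2.1.0 and Bowtie 1.1.2, HTSeq, DESeq2 and DESeq, Cufflinks 2.2.1, Trim Galore and the build mm10, without roles; strand handling and annotation release are not given in the sources used here. Footprint counts cover coding sequence per the file names, so counted regions may differ between the kinds of library, and a symbol missing from a footprint table was taken as 0. The authors' deposited comparison tables give, per the file headers, log2 fold changes, their errors, a test score, p-values and a normalized mean count (signal); only the fold changes and p-values were used.

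Counts were scaled with TMM within each kind of library and are shown as CPM. Summary lines of the counter stayed out of library sizes. Tests used edgeR 4.0.16 in R 4.3.3 (robust quasi-likelihood F-test, filterByExpr with a minimum count of 10, Benjamini-Hochberg over all genes, threshold 0.05), with genotype and batch as terms; the ratio was tested as the interaction of either with the kind of library, taking the libraries of a culture as independent. Alternatives used limma 3.58.1 (voom, weighting libraries by quality), DESeq2 1.42.0, other scaling, no filter and omitted cultures. On simulated counts, 92 of 100 genes changed 2-fold between genotypes were recovered in total RNA and 79 of 100 in footprints; for batch 3 against the others it was 83 and 34. Replicate numbers were not taken as pairs: KO2 and WT2 lie in different batches, as do KO3 and WT3. The correlations of deviations from the genotype mean were 0.554, 0.415, 0.0276, 0.327, 0.807 and 0.780 for replicates 1 to 6. Levels are not given per gene length, so levels of different genes are not compared. The 10 genes, the lists and the naming rule (all 10 genes, B2m, Psmb5 to Psmb7, and up to 4 called genes of a list with the largest differences) were chosen with earlier results of these data known.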

Additional observations from a re-analysis of the deposited data

Results flagged for a closer look

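In 9 of 60 groups of 6 cultures, 1 culture lay far from the other 5 (Dixon's criterion at the 95% level); chance flags about 1 in 20 groups. In WT6, whose footprint library is the shallowest, the Tap1 ratio of footprints to RNA was 0.300 (other WT cultures 1.28 to 1.80), that of Psmb10 0.316 (1.49 to 2.19) and that of Nlrc5 0 (0.342 to 0.470), resting on 1, 1 and 0 footprint counts. Tapbp footprints in WT6 were 305 CPM (793 to 875 CPM), from 12 counts. In KO1, Psmb8 footprints were 482 CPM (other KO cultures 278 to 342 CPM), with a ratio of 1.94 (1.21 to 1.45), and the Tap2 ratio was 2.20 (1.28 to 1.59). KO1 is the only KO culture of batch 1, and both ratios were high in its batch. Tapbp total RNA in WT4, the only WT culture of batch 2, was 637 CPM (298 to 395 CPM), the level of its batch. Nlrc5 total RNA in KO5 was 58.8 CPM (77.5 to 82.6 CPM).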

How the results depend on the processing

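With no filter on low counts the ratio across batches called 1 of the 10 genes in place of 3, and leaving out each culture gave 0 to 4. Without cultures under 1000000 footprint counts, the genotype calls of Nlrc5 given above rest on WT4 as the single WT culture of batch 2. That setting leaves no batch 3, so batches could not be compared. Leaving out cultures gave 7 to 9 genes across batches in total RNA and 5 to 6 in footprints, and without both KO6 and WT6 4 in footprints; over the alternatives batch 3 was lower than batch 1 in 5 to 8 genes and than batch 2 in 6 to 8. The calls of H2-K1, H2-D1, Tap1 and Tap2 total RNA in those pairs were made under every alternative run. No called value reversed. Of the values for single genes (genotype, joint test and mean of the culture ratios), 32 lost and 9 gained a call. Another 1149 kept their side of the threshold or, for the mean ratios, moved less than the SD between cultures. Of these 1149, 57 were uncalled genotype values that changed sign. Of the pairwise batch values, 65 lost and 16 gained a call. The cause of these changes was not tested.

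With the replicate number as a block, 0 of 10 genes were called by genotype in total RNA and 0 in footprints (0 and 3 of all genes). With the culture as a replicate block, the ratio called 0 by genotype and 5 across batches (2533 of all genes against 1354). The replicate block changed no other call.

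Of all genes, genotype calls in total RNA (2) were 7 with DESeq2, 5 with voom, 10 without a filter, 9 without KO1 and 1 without KO6 and WT6 (chosen after seeing the data). In footprints (6) they were 3, 1, 159 and 269 without KO1, 1 with no batch term, and 1413 without shallow cultures; ratio calls across batches were 583 without WT4. Library totals shifted the median of all genes by 0.14 between batches 3 and 2 in total RNA. They gave 817 higher and 702 lower footprint calls for batch 3 against batch 1 (688 and 810), 923 and 713 against batch 2 (783 and 840), and 665 and 480 ratio calls for batch 2 against batch 1 (595 and 606). Depth limits footprints in batch 3 most: 3 counts are 33.0 CPM in KO6.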
